A study of Arachis hypogaea with 15 samples.

Results

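Growth-regulating factors (GRF) and their GRF1-interacting factor cofactors (GIF) were followed through 5 sets of RNA-seq libraries from cultivated peanut, Arachis hypogaea. They were chosen by product name: 33 of 59878 listed rows had a best protein match called a growth-regulating factor or a GRF1-interacting factor. The rows arahy.EY9JW7.1 and arahy.HL76U9.1 repeat the same coordinates and the same values, so 32 genes were described, 24 GRF and 8 GIF. The groups were the shoot apex of a mutant with pentafoliate defects, and from wild type (WT) the shoot apex, the petiole and both kinds of leaflet, terminal and lateral. Each had 3 libraries. All 15 libraries came from soil-grown plants 40 days old, kept at 22 °C and 70% relative humidity under 16 h of light. The mutated gene is not named in the labels, nor is it said whether a library pools plants, so SDs and p-values measure the spread between libraries, which may be technical.

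GRF proteins are plant transcription factors with a WRC domain that binds DNA and a QLQ domain that binds GIF proteins. GIF proteins are coactivators that bring SWI/SNF chromatin remodelling complexes to GRF target genes. In Arabidopsis this module sustains cell proliferation in shoot meristems and young leaves, and the microRNA miR396 cleaves most GRF transcripts as leaf cells stop dividing. The number in a gene's name below is that of its closest protein match in the authors' annotation, and does not make it the ortholog of the Arabidopsis gene of that number.

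Levels are FPKM as deposited (fragments per kilobase of transcript and per M fragments sequenced), which allows levels to be compared between genes of different length. Fold changes are differences of log2(FPKM + 1), which understate the change of low genes, and genes were called at a limma adjusted p under 0.05 over 39031 tested genes. Depth was estimated at 16.9 to 18.1 M fragments per library from the step that 1 fragment makes in short genes, and within groups the libraries correlated across genes at 0.988 to 0.99. The tissue labels were checked against marker genes. A list of 29 meristem rows, mostly class I KNOX and CLE genes, summed to 366 to 367.7 FPKM in the mutant apex and 245 to 258.3 in the WT apex. It summed to 36.9 to 37.9 in the petiole, 10.8 to 12.3 in the terminal leaflet and 8.7 to 10.3 in the lateral leaflet. None of its CLE rows is named CLAVATA3 itself. Their group means were at most 5.4 FPKM, and they went in both directions between apex and leaflets. The apex sums thus rest on the 19 KNOX rows. The WUSCHEL gene of the stem cell organizer was near 0 everywhere, with a mean of 0.09 FPKM in the mutant apex and 0.023 in the WT apex. A list of 33 Rubisco small subunit and chlorophyll-binding protein rows was highest in the leaflets, at 21619.9 FPKM or more, against at most 9204.3 in the other groups. A list of 55 secondary wall and sieve element rows did not single out the petiole, where it summed to 325.1 to 326.8 FPKM. It stood at 691.1 to 713.2 in the mutant apex, 390.6 to 393.9 in the WT apex, and 162 to 168.9 in the leaflets.

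Of the 32 genes, 29 reached 1 FPKM in at least 3 libraries and were tested, 22 GRF and 7 GIF. The other 3 were the GRF9-like gene arahy.2H34WG.1, listed at 0 in 14 libraries, the short GRF1 gene arahy.BA31TH.1 at 0.3 to 1.11 FPKM, and the GIF2-like gene arahy.Tifrunner.gnm1.ann1.8236ZX.1 at 0.14 to 1.19 FPKM. Among the tested genes 20 were at 1 FPKM or more in every library. A further 5 reached that level in shoot apex and petiole libraries only, and so had to come out lower in leaflets: arahy.21S57B.1, arahy.V829EQ.1, arahy.7VQ11G.1, arahy.95DHJ9.1 and arahy.MSLW3U.1. The GIF1-like gene arahy.YG877J.1 reached it in no WT apex library, and the GIF2-like gene arahy.2XE8WN.1 in no WT apex or petiole library, so these entered the test through groups where they are high. A GRF1 gene held the high end of the family. The gene arahy.N7G5LN.1 (chromosome 17, 134025559 to 134028030, plus strand, in the coordinates of the Tifrunner assembly gnm1) had 118.75, 123.53 and 121.35 FPKM in the mutant apex, 129.32, 132.97 and 135.98 in the WT apex, 77.1, 76.43 and 72.51 in the petiole, 52.82, 47.25 and 49.01 in the terminal leaflet, and 53.25, 52.26 and 53.27 in the lateral leaflet. It was the most abundant GRF gene in every library, and arahy.Tifrunner.gnm1.ann1.858S2J.1 (GRF1, chromosome 8, 17611378 to 17614512) was next, with a mean of 77.4 FPKM in the WT apex. The third GRF gene of the WT apex, arahy.E8HE72.1 (GRF1-like, chromosome 1), stood at 28.6 ± 3.23 FPKM (SD, n = 3), far under both. Among cofactors the GIF1 and GIF3 pairs were abundant in the WT apex, at 34.2 to 44.4 FPKM, and the GIF2-like genes were near the limit of detection.

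**Figure D1:**
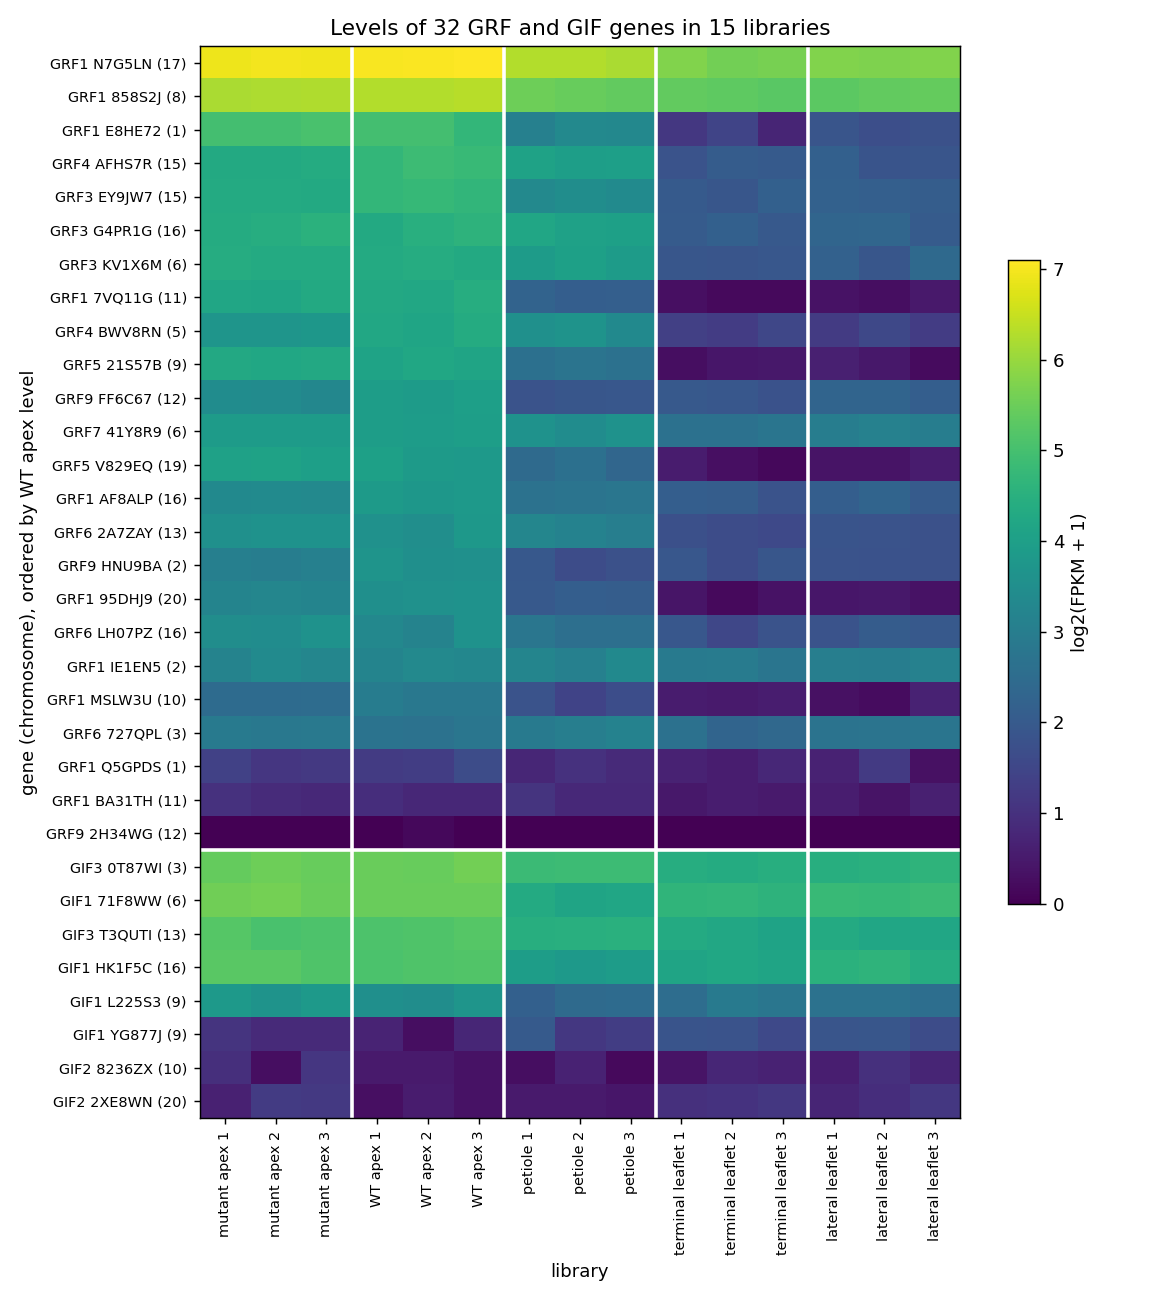
Colour gives log2(FPKM + 1) of each of the 32 genes (lines, named by product number, identifier and chromosome) in each of the 15 libraries (columns, white lines between groups). GRF genes are above the horizontal white line and GIF genes under it, ordered by WT apex level. Most GRF genes darken through the petiole to the leaflets, while arahy.N7G5LN.1 and the GRF1 gene of chromosome 8 stay bright in every library.

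The WT shoot apex was compared with the leaflets, the tip of the shoot against leaf blade. GRF transcripts were higher in the apex almost throughout the family: 21 of 22 tested GRF genes rose and 0 fell, and the difference was positive in all 22. For GIF genes 5 of 7 rose and 2 fell. Of the rises 5, and both falls, are of genes that passed the filter through the side where they are high. Over both classes 89.7% were called higher, and 6.9% lower, where the background over all tested genes was 35.3% higher and 44.3% lower (79.6% called in either direction). The apex libraries lay above every leaflet library in 26 members (background 31.5%) and under every one in 2 (background 38.7%). The median log2 difference was 2.10 for GRF genes and 0.79 for GIF genes, beside -0.09 for all tested genes. In such bulk samples, fewer cells of a type and less RNA per cell cannot be told apart.

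How far the leaflet level lay under the apex differed between GRF genes, from 1.23% to 90.5% of the WT apex mean with a median of 18.4%. In 7 of 22 it was under 10%. By log2 difference the steepest was arahy.7VQ11G.1 (GRF1, chromosome 11, 149197584 to 149200780, minus strand), with 18.36, 18.06 and 20.31 FPKM in the WT apex, against 0.22, 0.14 and 0.14 in the terminal leaflet and 0.28, 0.2 and 0.41 in the lateral leaflet. The apex and leaflet libraries were far apart, and the leaflet values stood for only about 4 to 13 fragments per library (log2 difference 4.02 ± 0.0652 SE). The GRF5-like copies came next. Like arahy.7VQ11G.1 they were tested through the libraries where they are high, and are given with no test. GRF5 of Arabidopsis enlarges leaves by prolonging cell division. The gene arahy.21S57B.1 (chromosome 9, 12355688 to 12358727) had 16.36, 17.76 and 16.83 FPKM in the WT apex, against 0.16 to 0.53 in the 6 leaflet libraries (log2 difference 3.76). Its chromosome 19 counterpart arahy.V829EQ.1 had 15.54, 13.56 and 12.93 FPKM in the WT apex, against 0.12 to 0.46 in leaflets (log2 difference 3.52). Next on that scale was arahy.E8HE72.1, at 30.22, 30.64 and 24.85 FPKM in the WT apex and 0.68 to 2.67 in leaflets (log2 difference 3.43, adjusted p = 9.88e-13). None of these 4 genes had a leaflet library near its lowest apex library.

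At the other end, arahy.Tifrunner.gnm1.ann1.727QPL.1 (GRF6, chromosome 3, 46790359 to 46794126) was the only GRF gene with no call. It had 5.52, 5.37 and 5.88 FPKM in the WT apex, against 5.28, 3.91 and 4.27 in the terminal and 5.5, 5.6 and 5.78 in the lateral leaflet, and the groups overlapped (log2 difference 0.13, 95% interval -0.02 to 0.28, adjusted p = 0.101). It was called higher in the apex under quantile normalization (adjusted p = 0.00195), under rescaling to TPM (0.0121) and without replicate 1 of the terminal leaflet (0.00992). The GRF1-like gene arahy.IE1EN5.1 (chromosome 2) was also nearly level, at 8.64 FPKM in the WT apex and 6.82 in leaflets (means; log2 difference 0.305, adjusted p = 0.000782). The abundant GRF1 gene of chromosome 8 kept 51.7% of its apex level in leaflets. Both falls in the apex were of weakly expressed cofactors that no WT apex library held at 1 FPKM, so that the filter fixed their direction. The GIF1-like gene arahy.YG877J.1 had 0.63, 0.2 and 0.71 FPKM in the WT apex, against 1.94 to 2.76 in leaflets (log2 difference -1.20). The GIF2-like gene arahy.2XE8WN.1 had 0.22, 0.46 and 0.26 FPKM in the WT apex, against 0.68 to 1.24 in leaflets (log2 difference -0.61). The gene arahy.YG877J.1 overlaps arahy.L225S3.2 on the opposite strand of chromosome 9 (58513948 to 58516575, and 58508141 to 58516529), and whether the counting used strand is not given in the sources used here, so the reads of these neighbours cannot be told apart.

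**Figure D2:**
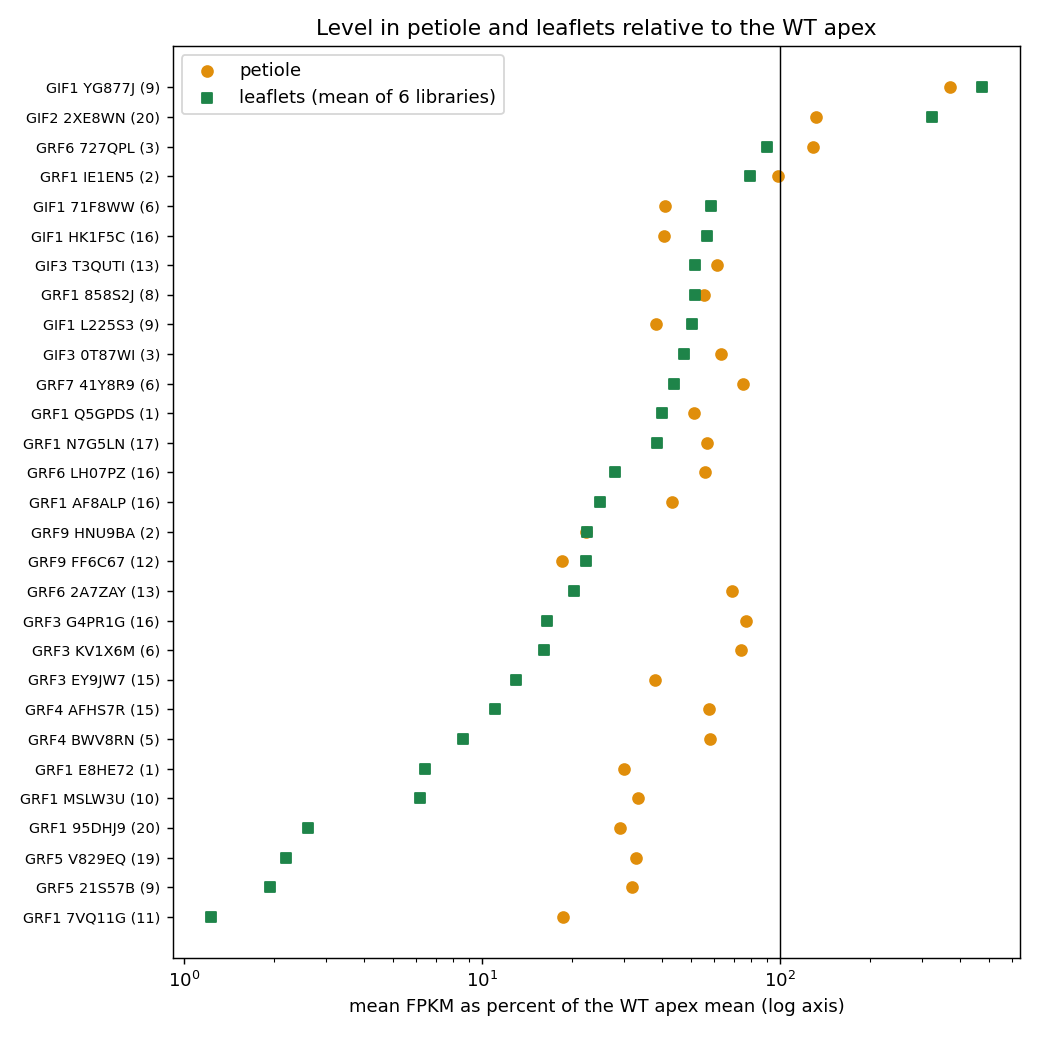
Mean level of each of the 29 tested genes in the petiole (circles, 3 libraries) and in the leaflets (squares, 6 libraries) as a percentage of the WT apex mean, on a log axis. Leaflet levels run from 1.23% for arahy.7VQ11G.1 to 475% for arahy.YG877J.1, and most GRF genes have the petiole point to the right of the leaflet point.

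The petiole, the stalk that bears the leaflets, was compared with the leaflets next. The same 6 leaflet libraries serve here as above. GRF genes were mostly higher in the petiole, and GIF genes went in both directions. Of 22 GRF genes 19 rose and 1 fell, and of 7 GIF genes 2 rose and 4 fell. Of the GRF rises, 5 are of the genes that reached 1 FPKM in apex and petiole libraries only, so that the filter fixed their direction. Of the 29 together, 72.4% were called higher and 17.2% lower, with a background of 30.8% higher and 44.1% lower (74.8% in either direction). By class, 86.4% of GRF genes were called higher and 4.55% lower, and 28.6% of GIF genes higher and 57.1% lower. The GIF shares lie near the background, so that their counts are no result about the cofactors. Every petiole library lay above all leaflet libraries in 19 members (background 26.6%) and under them in 4 (background 38.2%). Over all genes the called ones split 12004 higher and 17196 lower, and 15111 and 13656 under quantile normalization, which moved the median of all genes to 0.03, against -0.11 without it. Under that scaling the counts were 20 and 0 for GRF genes and 2 and 3 for GIF genes.

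GRF5-like and GRF4-like genes led the rises. GRF4 is known in rice as a positive regulator of grain size. The gene arahy.21S57B.1 had 5.2, 5.7 and 5.32 FPKM in the petiole, above each leaflet library (log2 difference 2.27). The gene arahy.BWV8RN.1 (GRF4-like, chromosome 5, 38227882 to 38232361) had 10.78, 11.55 and 9.39 FPKM in the petiole, against 1.35 to 1.92 in leaflets (log2 difference 2.17, adjusted p = 3.99e-12). Its chromosome 15 counterpart arahy.AFHS7R.1 had 16.11, 14.88 and 14.93 FPKM in the petiole, against 2.5 to 3.55 in leaflets (log2 difference 2.06, adjusted p = 2.66e-12). In all 3 genes the petiole libraries lay clear of the leaflets. The gene arahy.V829EQ.1 rose by a like amount (log2 difference 2.09). Both GRF5-like genes passed the filter through apex and petiole libraries only, and are given with no test. The GRF9 genes differed from this pattern. The gene arahy.FF6C67.1 (chromosome 12, 112204175 to 112207281) had 2.49, 2.7 and 2.81 FPKM in the petiole, against 2.48 to 2.94 in the terminal and 3.38 to 3.91 in the lateral leaflet. It was the GRF gene called lower (log2 difference -0.19, adjusted p = 0.00997), a call lost under quantile normalization, where the difference was 0.01, and without replicate 1 of the petiole (adjusted p = 0.057). The other GRF9 gene, arahy.HNU9BA.1, was level (log2 difference -0.01, 95% interval -0.17 to 0.15), and was called higher under quantile normalization (0.18, adjusted p = 0.0384).

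Among the cofactors, the abundant GIF1 and GIF3 pairs went in different directions, which is given as a description. GIF1 is the best known of them, as ANGUSTIFOLIA3 of Arabidopsis, whose loss gives narrow leaves with fewer cells. The GIF1-like gene arahy.71F8WW.1 (chromosome 6, 3701729 to 3704675, minus strand) had 19.05, 16.84 and 17.44 FPKM in the petiole, against 23.79, 24.51 and 23.22 in the terminal and 26.73, 25.82 and 27.87 in the lateral leaflet (log2 difference -0.49, adjusted p = 4.92e-08). The GIF1 gene arahy.HK1F5C.1 (chromosome 16) had 14.36, 13.03 and 14.23 FPKM in the petiole, against 16.55 to 23.41 in leaflets (log2 difference -0.45, adjusted p = 1.24e-06). Both GIF1 copies were thus lower in every petiole library than in every leaflet library. The GIF3 gene arahy.0T87WI.1 (chromosome 3, 21858045 to 21861970) had 27.68, 28.07 and 28.13 FPKM in the petiole, against 19.67 to 23.43 in leaflets (log2 difference 0.39, adjusted p = 6.75e-07). Its copy arahy.T3QUTI.1 on chromosome 13 also rose (log2 difference 0.23, adjusted p = 0.00119). The petiole libraries of both GIF3 copies lay above all leaflet libraries, and the difference between the GIF1 and GIF3 responses was not tested. The remaining falls were of arahy.L225S3.2 (log2 difference -0.33, adjusted p = 0.00335), which was not called under quantile normalization (-0.145, adjusted p = 0.15), and of arahy.2XE8WN.1 (-0.50), which reached 1 FPKM in leaflet but not in petiole libraries and so was bound to be lower. The gene arahy.YG877J.1 had no call (log2 difference -0.29, adjusted p = 0.132), and without replicate 1 of the petiole, its highest petiole library, it was called lower (-0.56, adjusted p = 0.00256).

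Between the WT shoot apex and the petiole, 20 of 22 GRF genes rose in the apex and 1 fell, and 5 of 7 GIF genes rose and 1 fell. That is 86.2% higher and 6.9% lower, with a background of 27.5% and 27.2% (54.7% called in either direction). The libraries did not overlap in 25 members higher in the apex (background 30.3%) and 2 lower (background 29.1%). These calls share the apex libraries with the leaflet comparison above. Besides arahy.7VQ11G.1, the GRF9 genes showed the widest gap. The gene arahy.FF6C67.1 had 14.41, 13.79 and 15.12 FPKM in the WT apex, against the petiole values given above (log2 difference 2.07, adjusted p = 6.28e-12). The gene arahy.HNU9BA.1 (chromosome 2, 96104583 to 96107956) had 11.81, 10.56 and 10.93 FPKM in the WT apex, against 2.9, 2.15 and 2.39 in the petiole (log2 difference 1.80, adjusted p = 2.55e-10). By contrast, the GRF3 genes of chromosomes 6 and 16 kept 73.8% and 77% of their apex level in the petiole. The GRF6 gene of chromosome 3 was lower in the apex than in the petiole, where it had 6.64, 7.13 and 7.88 FPKM (log2 difference -0.32, adjusted p = 0.00429). The other fall was of arahy.YG877J.1 (log2 difference -0.90), which passed the filter through petiole and leaflet libraries. The call of the short GRF1 gene arahy.Q5GPDS.1 (log2 difference 0.51, adjusted p = 0.0267) was lost with a pseudocount of 0.1 (0.0681), without replicate 3 of the WT apex (0.12), and without replicate 1 or 3 of the petiole (0.0859 and 0.0616).

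Terminal and lateral leaflets differ in position on the leaf. Time of harvest is not in the labels used, so it and position cannot be told apart. Where leaflets differed, the terminal leaflet had less: 4 of 22 GRF genes and 2 of 7 GIF genes fell, and none rose, also at an unadjusted limma p under 0.05. The share called lower was 20.7%, with a background of 7.45% lower and 5.63% higher (13.1% in either direction). Counted by libraries that did not overlap, 8 members were lower and 0 higher in the terminal leaflet, with a background of 19.1% and 11.4%. The largest fall was of arahy.E8HE72.1 (94207648 to 94209012 on chromosome 1), with 1.21, 1.73 and 0.68 FPKM in the terminal leaflet, against 2.67, 2.29 and 2.4 in the lateral leaflet (log2 difference -0.67, adjusted p = 0.00407). The GRF7-like gene arahy.41Y8R9.1 (chromosome 6, 112203219 to 112208241) had 5.24, 5.21 and 5.8 FPKM in the terminal leaflet, against 7.09, 7.77 and 7.05 in the lateral leaflet (log2 difference -0.37, adjusted p = 0.00047). Cofactor arahy.HK1F5C.1 had 16.55, 17.64 and 16.82 FPKM in the terminal leaflet, against 22.15, 23.41 and 20.07 in the lateral leaflet (log2 difference -0.34, adjusted p = 0.00108). In these genes no terminal library reached a lateral one. The gene arahy.FF6C67.1 was the other fall that held under every alternative tried (log2 difference -0.335, adjusted p = 0.00525).

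The other falls were less steady. The call of arahy.71F8WW.1 (log2 difference -0.16, adjusted p = 0.0356) was lost in 6 of 21 alternatives, 4 of them single libraries left out (replicates 1 and 3 of each leaflet), and that of the GRF6 gene of chromosome 3 (-0.28, adjusted p = 0.0354) in 8 of 21. The gene arahy.KV1X6M.1 (GRF3, chromosome 6) had no call (-0.27, adjusted p = 0.0746) but was lower without replicate 2 of the lateral leaflet (-0.40, adjusted p = 0.00164). The gene arahy.N7G5LN.1 had none either (-0.09, adjusted p = 0.161), and was lower without replicate 1 of the terminal leaflet (-0.14, adjusted p = 0.0314).

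The mutant with pentafoliate defects was compared with WT in the shoot apex, where leaflet number is set. Plant background or harvest time and the mutation cannot be told apart here. A part of the GRF family fell in the mutant apex, namely the GRF9 and GRF4 copies, 1 GRF3 gene and some GRF1 genes: 9 of 22 GRF genes fell and 0 rose (0 also at an unadjusted limma p under 0.05), while of 7 GIF genes 0 fell and 1 rose, a gene under 1 FPKM in every WT apex library. In all 34.5% of the members were called, close to the background of 35.6%, so that the number of calls is no result about the family. By direction, 31% were called lower, with a background of 11.9%, and 3.45% higher, with a background of 23.7%. The libraries did not overlap in 11 members lower in the mutant (background 15.8%) and 5 higher (background 30.1%). Over all genes the called ones split 9243 higher and 4633 lower, and 6889 and 6112 under quantile normalization, where 10 GRF genes were lower, with the GRF1 gene of chromosome 8 added (-0.11, adjusted p = 0.0409). The median log2 difference was -0.08 for GRF genes, 0.10 for GIF genes and 0.07 for all tested genes. By the authors' deposited q-values, given below, some GRF genes were higher in the mutant.

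The GRF9 gene arahy.FF6C67.1 showed the deepest fall, with 9.89, 9.68 and 8.81 FPKM in the mutant apex, against 14.41, 13.79 and 15.12 in the WT apex (log2 difference -0.56 ± 0.0703 SE, adjusted p = 2.65e-05). The gene arahy.HNU9BA.1, also GRF9-like, had 7.43, 7.03 and 7.55 FPKM in the mutant apex, against 11.81, 10.56 and 10.93 in the WT apex (log2 difference -0.54, adjusted p = 0.000243). Both GRF9 genes thus stood at 65.5% and 66.1% of the WT apex level, with no overlap between libraries. GRF9 of Arabidopsis, unlike several other members, limits leaf growth. The GRF4-like gene arahy.BWV8RN.1 had 12.09, 12.09 and 12.6 FPKM in the mutant apex, against 18.02, 17.07 and 19.52 in the WT apex (log2 difference -0.53, adjusted p = 0.000544). Its counterpart arahy.AFHS7R.1 (chromosome 15, 19202537 to 19206908) had 18.9, 18.94 and 19.46 FPKM in the mutant apex, against 25.1, 28.07 and 26.58 in the WT apex (log2 difference -0.455, adjusted p = 0.000935). Mutant libraries of both GRF4-like genes agreed within 1 FPKM of each other and lay under each WT library.

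The other falls were in GRF1 and GRF3 genes. The GRF1 gene arahy.AF8ALP.1 (chromosome 16, 151246902 to 151252351) had 9.28, 9.49 and 9.06 FPKM in the mutant apex, against 13.5, 12.6 and 13.16 in the WT apex (log2 difference -0.455, adjusted p = 0.000613). The GRF3-like gene arahy.EY9JW7.1 (chromosome 15, 2029296 to 2033171) had 19.17, 19.28 and 19.02 FPKM in the mutant apex, against 25.03, 26.22 and 24.35 in the WT apex (log2 difference -0.38, adjusted p = 0.000371). Neither gene showed overlap between mutant and WT libraries. The GRF1 copies of chromosomes 10 and 20 fell together. The gene arahy.MSLW3U.1 had 4.57, 4.54 and 4.66 FPKM in the mutant apex, against 6.83, 6.2 and 6.19 in the WT apex, and arahy.95DHJ9.1 had 8.28, 8.49 and 8.14, against 10.62, 11.04 and 11.27 (log2 differences -0.405 and -0.36, adjusted p = 0.0119 and 0.00143). These calls were lost with a pseudocount of 0.1 (adjusted p = 0.177 and 0.108). The most abundant gene, arahy.N7G5LN.1, fell by 0.13 on the log2 scale (adjusted p = 0.0192), and lost its call without replicate 3 of the WT apex (0.0675) or replicate 1 of the mutant apex (0.0705).

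The genes that did not fall include the GRF5-like copies, GRF3 of chromosomes 6 and 16, and the GRF6 genes. For arahy.21S57B.1 the libraries stood at 18.4, 17.77 and 18.41 FPKM in the mutant apex, against 16.36, 17.76 and 16.83 in the WT apex (log2 difference 0.095, 95% interval -0.10 to 0.29, adjusted p = 0.45). The GRF3 gene arahy.KV1X6M.1 stood at 19.5 FPKM on average in both (95% interval -0.20 to 0.20). These intervals leave out falls as deep as that of arahy.FF6C67.1. The cofactor with a rise was the low arahy.2XE8WN.1 (GIF2-like, chromosome 20, 92486053 to 92488462), with 0.58, 1.37 and 1.25 FPKM in the mutant apex, against 0.22, 0.46 and 0.26 in the WT apex (log2 difference 0.64). It passed the filter through 2 mutant apex and 3 leaflet libraries and no WT apex library, so this rise is no independent test. No mutant library overlapped WT, and the values stood for about 11 to 25 fragments in mutant and 4 to 8 in WT libraries. For the abundant cofactors the log2 differences were 0.08 and 0.10 for the GIF1 copies and -0.03 for each GIF3 copy, with adjusted p from 0.2 to 0.733. In the authors' deposited table, of the same 29 genes 10 were higher and 10 lower at q under 0.05, in a table where 49.1% of rows passed, and all 10 calls made here had the same direction there.

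**Figure D3:**
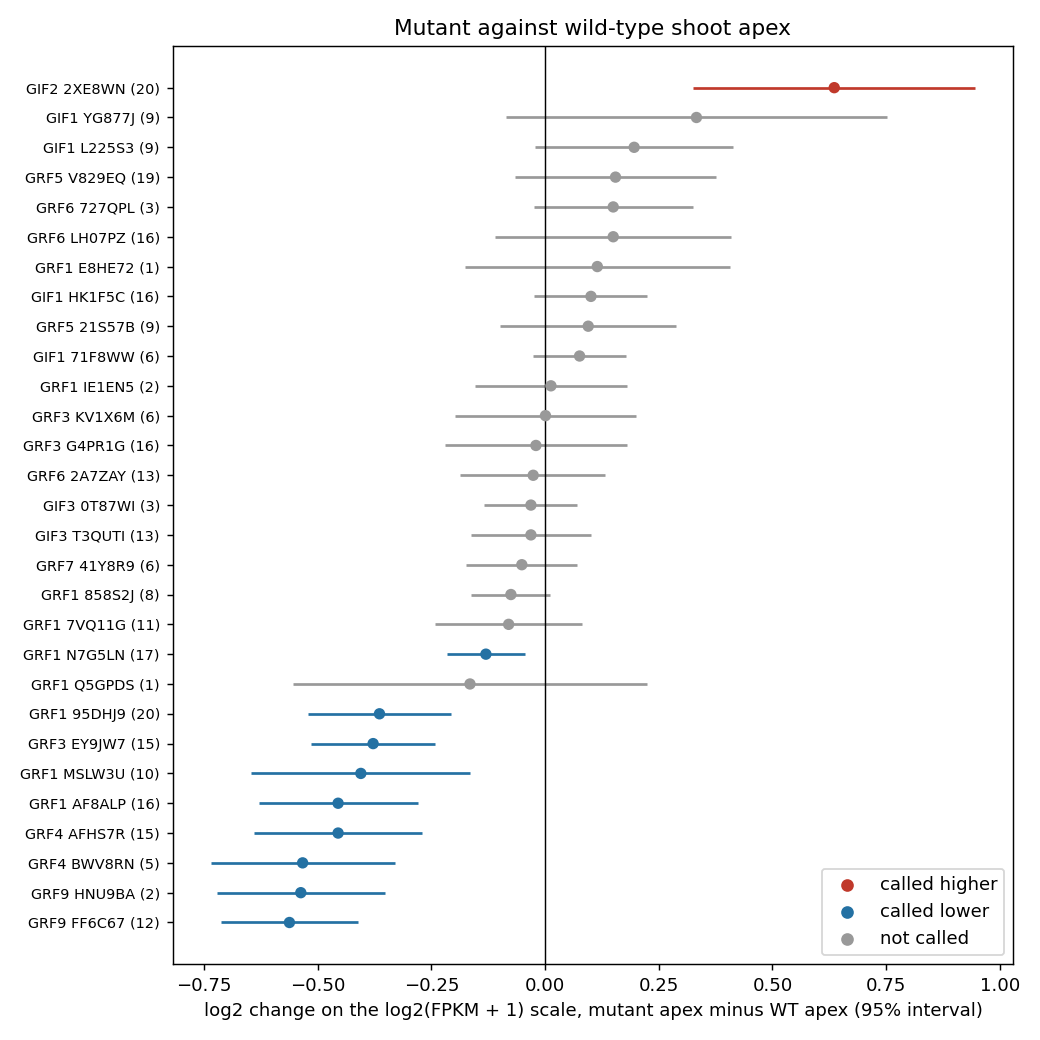
Log2 difference of each of the 29 tested genes between the mutant and the WT apex on the log2(FPKM + 1) scale, with its 95% interval. Blue points are the 9 genes called lower, the red point is arahy.2XE8WN.1, called higher, and grey points had no call.

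Other measures differed between the same libraries. The meristem list was higher in the mutant apex, as given above. So was the list of 55 secondary wall and sieve element rows, at 691.1 to 713.2 FPKM against 390.6 to 393.9 in the WT apex. Among the 55 rows 6 were at 0 in the mutant and 5 in the WT apex. Among the 29 meristem rows 3 were at 0 in the mutant and 1 in the WT apex. The part of these differences in the GRF falls was not tested. Position was examined as well. The nearest tested genes, up to 20 on each side of each member, had median log2 differences between -0.01 and 0.16, near the 0.07 of all genes. Those beside the 9 GRF genes called lower had medians between 0 and 0.16. For arahy.7VQ11G.1 there were 26 neighbours in all.

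Peanut is an allotetraploid, with A copies on chromosomes 1 to 10 and B copies on 11 to 20. Copies were paired where chromosomes n and n + 10 each held 1 gene of the same product number, counting GRF genes only if the authors' transcription factor column also classed them as GRF. This gave 10 pairs of A and B copies, 7 GRF and 3 GIF. Their sequences were not compared, and near-identical copies may exchange reads, which would make a pair look alike. In 9 pairs both copies were tested. In the mutant comparison 3 pairs fell in both copies (GRF1 of chromosomes 10 and 20, GRF4 and GRF9), 6 had no call and none was split. In the WT apex both copies rose against the leaflets in 8 of 9 pairs, and against the petiole in 8 of 9. The exception was GRF6 each time. Against leaflets the filter fixed the direction of both GRF5 copies, both GRF1 copies of chromosomes 10 and 20, and GRF1 of chromosome 11. Over all tested genes 35.3% were called higher in the WT apex than in leaflets, and 27.5% higher than in the petiole. No share over all pairs of copies was computed.

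The GRF6 copies took different courses across the tissues. The A copy, on chromosome 3, had a mean of 6.31 FPKM in the mutant apex, 5.59 in the WT apex, 7.22 in the petiole, 4.49 in the terminal and 5.63 in the lateral leaflet. For the B copy arahy.2A7ZAY.1 (chromosome 13, 49987002 to 49990758) these means were 11.2 in the mutant apex, 11.4 in the WT apex, 7.87 in the petiole, 2.15 in the terminal and 2.49 in the lateral leaflet. The A copy therefore made up 32.9% of the pair's sum in the WT apex, 47.8% in the petiole, 67.5% in the terminal and 69.3% in the lateral leaflet. The difference of A minus B in log2(FPKM + 1) was -0.99 to -0.85 in WT apex libraries, -0.32 to 0.11 in the petiole, 0.65 to 0.91 in the terminal and 0.87 to 1.00 in the lateral leaflet, so the apex, the petiole and the leaflets did not overlap. In the mutant apex it was -0.77 to -0.67, above every WT apex library. This pair was singled out after its values were seen, and no test was made of it. The balance of other pairs is given as a description. The A share ran from 55.1% to 58.4% over the groups for GIF1, from 53.2% to 56.8% for GIF3 and from 46.2% to 48.6% for GRF3. For GRF1 of chromosomes 1 and 11 it was 60% in the WT apex and 86.7% and 89.3% in the terminal and lateral leaflets, where the B copy was down to a few fragments. For GRF1 of chromosomes 10 and 20 it was 36.9% in the WT apex, 40% in the petiole, 66.7% in the terminal and 47.2% in the lateral leaflet, with both copies under 0.6 FPKM on average in the leaflets.

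**Figure D4:**
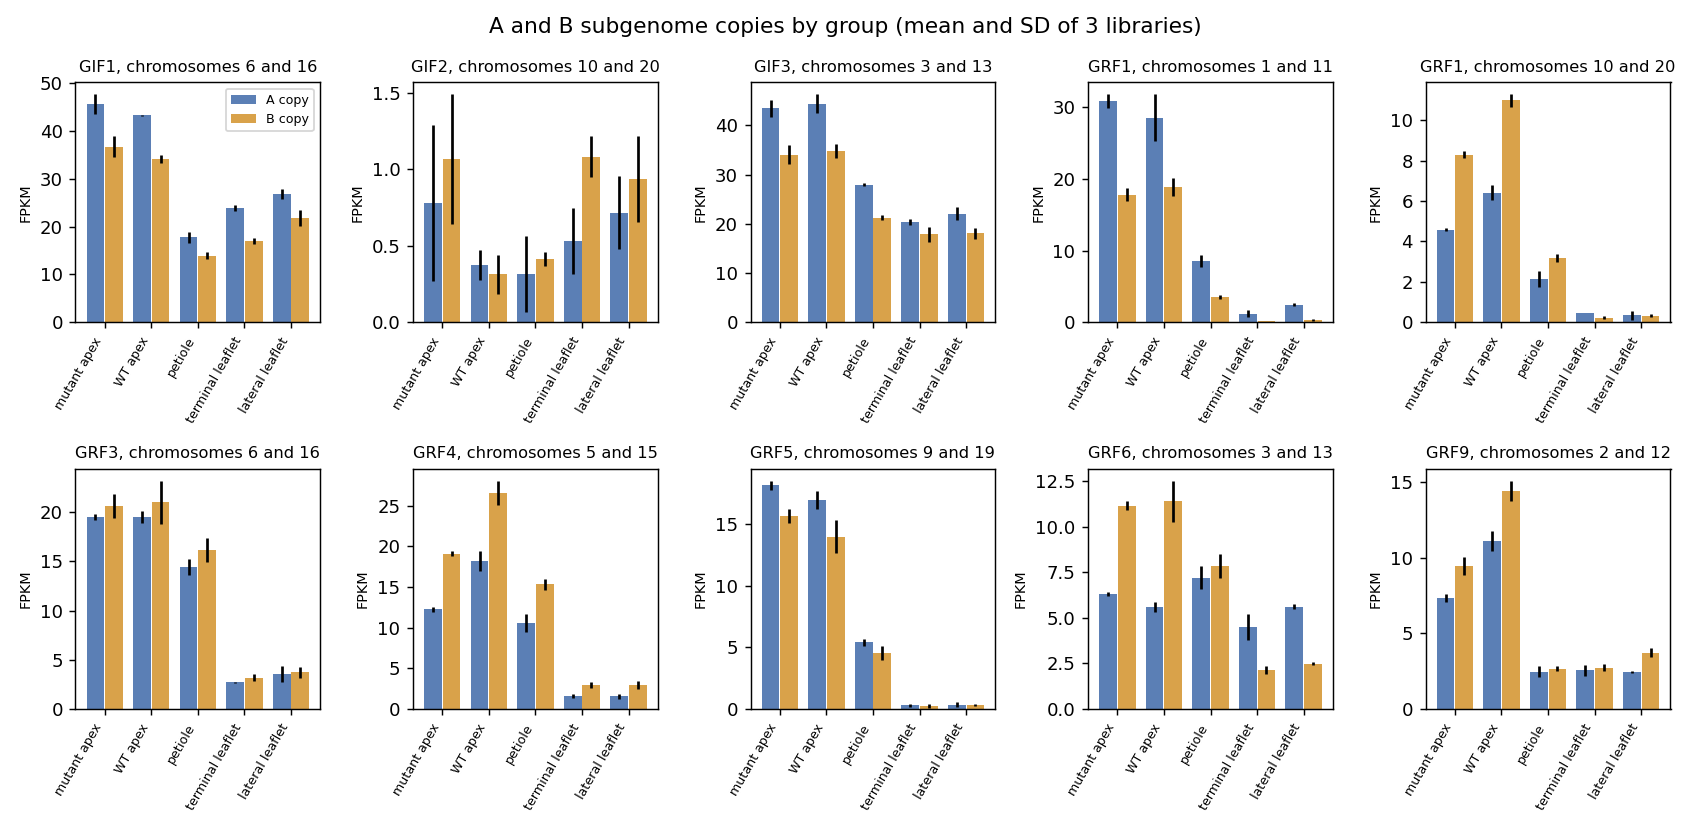
Mean FPKM of the A copy (blue) and the B copy (orange) of 10 pairs in the 5 groups, with bars for the SD of 3 libraries, and each panel on its own scale from 0. In the GRF6 panel the B copy is the higher one in both apex groups and the A copy in both leaflet groups.

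Summed over all 24 GRF genes, the level was 453.71, 460.46 and 464.71 FPKM in the mutant apex, 499.87, 505.17 and 516.18 in the WT apex, 269.3, 264.54 and 257.54 in the petiole, 141.76, 132.42 and 132.39 in the terminal leaflet, and 148.15, 149.52 and 149.51 in the lateral leaflet. The 5 groups did not overlap, and the order was WT apex, mutant apex, petiole, lateral leaflet, terminal leaflet. Summed over the 8 GIF genes, the level was 175.3 ± 3.75 FPKM in the mutant apex, 168.7 ± 4.99 in the WT apex, 87.7 ± 1.46 in the petiole, 88.7 ± 1.83 in the terminal and 98.3 ± 0.4 in the lateral leaflet (SD, n = 3 each). Mutant and WT apex overlapped in this sum, as did petiole and terminal leaflet. The ratio of summed GRF to summed GIF transcripts was 2.56 to 2.72 in the mutant apex, 2.96 to 3.05 in the WT apex, 2.93 to 3.07 in the petiole, 1.46 to 1.6 in the terminal and 1.51 to 1.53 in the lateral leaflet. The petiole thus had a ratio like that of the WT apex at about the cofactor level of leaflets. The GRF1 genes of chromosomes 17 and 8, the most abundant of the family, together made up 42.4% of GRF transcripts in the mutant apex, 41.4% in the WT apex and 44.8% in the petiole, and 65.9% in the terminal and 62.6% in the lateral leaflet. Without these genes the GRF sum was 265 FPKM in the mutant apex, 296.9 in the WT apex, 145.6 in the petiole, 46.2 in the terminal and 55.8 in the lateral leaflet. These sums describe the groups and were not tested.

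**Figure D5:**
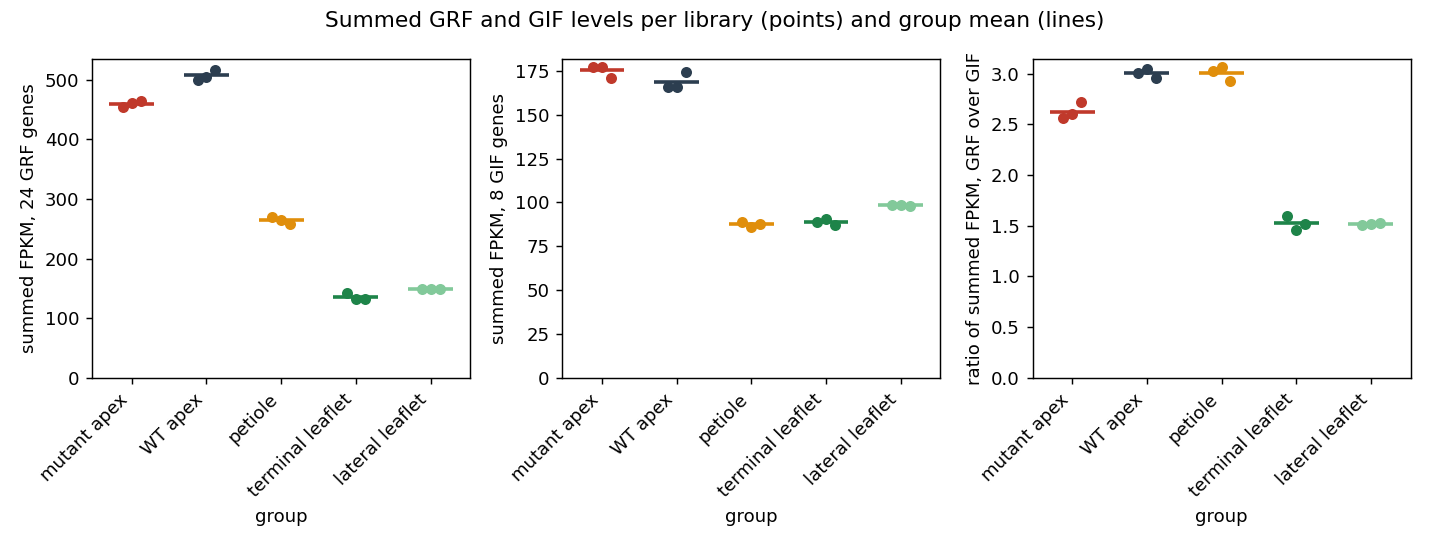
Summed FPKM of 24 GRF genes (left), of 8 GIF genes (middle) and their ratio (right) in each library (points), with group means (lines). The ratio lies near 3 in the WT apex and petiole, between 2.56 and 2.72 in the mutant apex and near 1.5 in both leaflets.

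Genes that act with the module were read from 5 lists on product names, each set beside the shares of all tested genes given above. SWI/SNF subunits are the remodellers that GIF proteins bind in Arabidopsis. In the mutant apex 9 of 26 fell and 2 rose (12 and 0 under quantile normalization) and 15 had no call, with a median of -0.11. That is 34.6% lower, with a background of 11.9%. Without quantile normalization all 9 falls were of SYD or BRM remodeller genes, and no SWI3, SNF12 or BSH subunit gene fell. The rises were of a SWI3C-like and a SNF12 gene. The remodeller gene arahy.N8S0IJ.5 (SYD) had 13.95 ± 0.444 FPKM in the mutant apex and 21.3 ± 0.248 in the WT apex (SD, n = 3 each, log2 difference -0.58, adjusted p = 2.51e-07). Of the 26, 21 rose and 5 fell in the WT apex against leaflets (80.8% higher, background 35.3%), and 20 rose and 3 fell against the petiole (76.9% higher, background 27.5%). The petiole had 17 higher and 3 lower than leaflets (65.4% higher, background 30.8%). The terminal leaflet had 1 higher and 4 lower than the lateral (15.4% lower, background 7.45%). The SYD gene arahy.N8S0IJ.5 also led the apex against leaflets, at 21.3 FPKM in the WT apex and 7.52 in leaflets (log2 difference 1.39).

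CIN-type TCP factors end cell division in leaves, and in Arabidopsis TCP4 activates miR396 genes. All 8 tested were lower in the mutant apex (background 11.9%), led by arahy.7QL5S6.1 (TCP3-like, log2 difference -1.40, adjusted p = 1.68e-11). Against leaflets 5 of 8 fell in the WT apex (62.5%, background 44.3%) and 0 rose (1 under quantile or TPM scaling). The gene arahy.N9U68C.1 (TCP13-like) stood at 1.2 FPKM in the WT apex and 72.2 in leaflets (log2 difference -5.055, adjusted p = 2.21e-16). In the WT apex 7 rose and 0 fell against the petiole (87.5% higher, background 27.5%), and in the petiole 8 fell against leaflets (100% lower, background 44.1%). In the terminal leaflet 1 was lower than in the lateral (12.5%, background 7.45%), and 3 under quantile or TPM scaling. Class I KNOX genes, which GRF proteins repress in Arabidopsis and cereals, rose in the mutant apex in 11 of 18 cases (61.1%, background 23.7%). None fell, and arahy.0VJ2KM.1 led the rises (log2 difference 1.06, adjusted p = 8.26e-08). These genes make up most of the meristem list above, so this is not a separate observation. Against leaflets 17 of 18 rose in the WT apex (94.4%, background 35.3%), with arahy.A8JEVC.1 at 49 FPKM in the WT apex and 0.01 in leaflets. Genes near 0 in leaflets, such as arahy.A8JEVC.1, passed the filter through groups where they are high. They could not come out lower in the apex, so the 94.4% is no independent test. Against the petiole 15 rose in the WT apex (83.3%, background 27.5%) and 1 fell. The same limit holds for genes near 0 in the petiole. In the petiole 8 rose against leaflets (44.4%, background 30.8%), and none was called between the leaflets.

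The mitotic list held B cyclins, Aurora kinases, NACK1 kinesins and KNOLLE syntaxins, and its pattern also caught 2 calcyclin-binding proteins, which are not of these classes. Counts are given without them, a choice made after the data were seen. In the mutant apex 9 of 16 rose and 0 fell (56.2% higher, background 23.7%), led by arahy.JUI4U4.2 (Aurora-3, log2 difference 0.47, adjusted p = 0.000568). In the WT apex 0 rose and 14 fell against leaflets (87.5% lower, background 44.3%), and 1 and 11 under quantile normalization, led by arahy.RK0Q3N.1 (cyclin-B3-1) at 2.59 FPKM in the WT apex and 9.19 in leaflets (log2 difference -1.49, adjusted p = 1.19e-12). Against the petiole 2 rose and 8 fell in the WT apex (50% lower, background 27.2%). In the petiole 1 rose and 12 fell against leaflets (75% lower, background 44.1%). In the terminal leaflet 8 were lower than in the lateral (50%, background 7.45%) and none higher.

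Organ growth regulators, 20 genes after 2 repeated rows were counted once, held both directions. In the mutant apex 4 rose and 3 fell (3 and 4 under quantile normalization), shares of 20% and 15% that lie near the background of 23.7% and 11.9%. Against leaflets 9 rose and 7 fell in the WT apex (45% and 35%, background 35.3% and 44.3%). Against the petiole 9 rose and 3 fell in the WT apex (45% and 15%, background 27.5% and 27.2%). In the petiole 9 rose and 9 fell against leaflets (45% each, background 30.8% and 44.1%), and 9 and 6 under quantile normalization. Between leaflets none was called. The mutant counts are thus no result about the list. The growth regulator arahy.64XMNP.1 (DA1-related 2-like) had 2.6 FPKM in the mutant apex and 0.77 in the WT apex (log2 difference 1.03). Its mean was above 1 FPKM only in the mutant apex, the group where it is high, so this rise is no independent test. The cytochrome gene arahy.H82QG0.1 (CYP78A3, of the family of the Arabidopsis organ growth gene KLUH) had 128.2 FPKM in the WT apex and 1.11 in leaflets (log2 difference 5.94, adjusted p = 1.11e-17).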

How the data were processed

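RNA was sequenced on an Illumina instrument from cDNA made with random primers, per the labels' protocols. The authors deposited FPKM values for 59878 rows, per the file headers, in 15 columns that each occur in duplicate with identical values and were read once. What aligned and counted the reads, and with which strand setting, was not given in the sources used here. TAIR10 is the build in the submitters' processing notes, while identifiers and coordinates are of the peanut Tifrunner assembly gnm1. Leaflet columns were matched to their libraries by tissue, since their abbreviations differ from the titles. The authors' deposited log2 ratios and q-values of the mutant comparison, per the file headers, were used only where credited.

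A gene was tested if 3 or more libraries reached 1 FPKM (39031 genes), values were taken as log2(FPKM + 1), and group means over all 15 libraries were fitted by limma 3.58.1 under R 4.3.3, using its robust empirical Bayes with a mean-variance trend, with Benjamini-Hochberg adjustment over all tested genes. The fit was tested on simulated data. The input was read by the R package data.table (version 1.17.8) and figures drawn by matplotlib 3.10.9. Named in full were, per comparison, up to 4 members called in each direction with the largest change, the tested GIF genes, the 3 members with the highest mean, and the leading called gene of each pathway list. The members, lists and tests were chosen with earlier results of these data known. Some further members were named after their values were seen.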

Additional observations from a re-analysis of the deposited data

How the results depend on the processing

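No count of called members or of called genes over all genes changed by more than 1.5 times under the alternatives run (pseudocount 0.1, no filter, quantile normalization, TPM rescaling, replicate block, only the libraries compared, and each library left out). The number of members called ranged from 8 to 11 in the mutant apex, 28 to 30 in the WT apex against leaflets, 25 to 27 in the petiole against leaflets, 4 to 7 in the terminal leaflet against the lateral, and 26 to 28 in the WT apex against the petiole, where counting the repeated row as a gene of its own, an alternative added after seeing the data, is included. Calls kept under every alternative that tested the gene numbered 7 of 10, 28 of 28, 23 of 26, 4 of 6 and 26 of 27 in the same order. Over the pathway lists 48 entries were called in the mutant apex, and 47 with repeated rows counted once or with the calcyclin-binding proteins left out, both added after seeing the data. With only the mutant and WT apex libraries, arahy.2XE8WN.1 was under the filter. With the replicate block, a block for which the pairing check gave no ground, 10, 28, 26, 5 and 27 members were called in the same order, and the call lost was that of arahy.71F8WW.1 between leaflets (adjusted p = 0.0511). Deviations of same-numbered libraries from their group means correlated at -0.0551 to 0.0503, and only 2 of 15 libraries correlated best with their own number.

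Both GRF9 genes changed sign in the petiole against leaflets under quantile normalization, as given above. The other changes of sign among the genes named by rule were in uncalled cofactors. With single libraries left out, arahy.0T87WI.1 ranged from -0.063 to 0.005 and arahy.T3QUTI.1 from -0.075 to 0.003 in the mutant apex, and between leaflets arahy.T3QUTI.1 from -0.076 to 0.043 (0.011 under quantile normalization) and arahy.YG877J.1 from -0.161 to 0.009. The cause was not tested. The leaflet levels of the steepest GRF genes rest on few fragments, so their ratios to the apex are imprecise.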
